A study of Homo sapiens with 6 samples.

Results

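The transcription factors that steer haematopoietic progenitors into the granulocytic and monocytic lineages were examined in FUJIOKA cells after silencing of SPINK2. The group comprised 9 genes (SPI1, CEBPA, CEBPB, CEBPD, CEBPE, KLF4, GFI1, RUNX1 and MYB), which were selected by gene name out of the 63236 genes in the table. The names were chosen with earlier results of these data known. Of these, 8 were expressed and tested, whereas KLF4 was not detected. FUJIOKA is a human acute myeloid leukaemia (AML) cell line, and bulk RNA-sequencing compared 3 libraries with a scrambled, non-targeting shRNA (shNEG) with 3 libraries with an shRNA against SPINK2 (shSPINK2), a gene for a serine peptidase inhibitor of the Kazal type. In both groups the cells carried the Tet-pLKO-puro lentiviral vector, were selected with puromycin and expressed their shRNA under doxycycline. The methods name 1 SPINK2 shRNA (shRNA1) while the sample labels name shRNA1 and shRNA2, and neither ties the shSPINK2 libraries to one or the other, so they are described as a single group. The hours on doxycycline at RNA collection, and whether the 3 libraries of a group came from separate cultures, are not given in the sources used here, so that p-values measure only the spread between these libraries.

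Myeloid commitment depends on a small set of DNA-binding proteins that act in sequence and on one another. RUNX1 and MYB maintain progenitors, SPI1 (PU.1) and CEBPA set the myeloid fate, and GFI1 and CEBPE take granulocytic precursors further, while KLF4, CEBPB and CEBPD are associated with monocytic or inflammatory gene expression. In AML this network is a frequent target of mutation and fusion, RUNX1 and CEBPA in particular, and MYB is commonly needed for leukaemic growth.

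The table gives 1 mean per gene over all 6 libraries together with the fold change and its standard error, and no value per library. The whole reads of each library were therefore recovered from these values, as described under the processing, and were found uniquely for 17283 of the 17395 genes for which an adjusted p is given, all 8 detected members among them. The libraries recovered in this way have no replicate number, and they are called a, b and c within a group in the order of their size factors, the scaling that sets the libraries to a common depth, which ran from 0.985 to 1.03. Normalized reads (reads divided by the size factor) are given in that order throughout. The recovered genes held between 30897268 and 31751926 reads per library. Over these genes, the mean squared difference between 2 libraries, in units of the counting error alone, was 1.78 to 2.42 within shNEG, 4.59 to 6.28 within shSPINK2 and 65.0 to 70.7 between the groups, so every pair of libraries differed by more than the sampling noise. SPINK2 itself (ENSG00000128040.10, chromosome 4 from 56809860 to 56821742, GRCh38) had 53.1, 63.0 and 55.8 normalized reads in shNEG and 6.09, 8.92 and 6.78 in shSPINK2. Its log2 fold change of shSPINK2 against shNEG (log2FC) in the authors' deposited DESeq2 results was -2.98 (SE 0.41, adjusted p = 2.41e-12), so SPINK2 fell by 87.3%. Each log2FC, its standard error (SE) and its DESeq2 adjusted p given hereafter are from these deposited results unless limma is named.

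The members were then set against the sequences of both labelled shRNAs. They are shown because bases 2 to 8 of a guide, the seed, can pair with the 3′ UTRs of transcripts other than the intended one, and capitals mark the 7 bases that the seed would pair with.

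shRNA1: tcagggaaggtggTCATAATa
shRNA2: cgccaaactgctcTCAGTATa

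The site of the shRNA1 seed, TCATAAT, was absent from the 3′ UTR and the coding sequence of the canonical transcript of all 9 members. The site of the shRNA2 seed, TCAGTAT, occurred once in the 3′ UTRs of MYB, RUNX1 and KLF4, shown with 7 flanking bases on each side.

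MYB, chr6:135218291-135218311 (+): caacagaTCAGTATtttttcc
RUNX1, chr21:34788687-34788707 (-): agccaggTCAGTATtgatgag
KLF4, chr9:107485696-107485716 (-): agagaatTCAGTATtttttac

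Neither MYB nor RUNX1 was lower in shSPINK2, and both were higher, as described for each gene. Among 12708 tested genes with a 3′ UTR of more than 20 bases in GENCODE release 44, searched on the transcript strand only, 13.3% held TCATAAT and 15.1% held TCAGTAT, with median log2FC values of 0.01 and 0.01. Of the genes holding TCATAAT 29.45% were lower at an adjusted p under 0.05, against 31.1% of those without it, and for TCAGTAT the shares were 31.0% and 30.8%. Another word of shRNA2, GCTCTCA (cgccaaactGCTCTCAgtata), shares its last bases, TCA, with the seed site and otherwise lies outside it. It was taken up because an earlier search of many words in these same data had picked it, so its values are a description. It was held by 10.4% of these 3′ UTRs, and 48.7% of the genes holding it were lower at an adjusted p under 0.05 against 28.8% of the genes without it. None of the 9 members had GCTCTCA in its 3′ UTR or coding sequence. The part of such words in the values below was not tested.

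Of the 8 members tested, 4 were higher in shSPINK2 at an adjusted p-value under 0.05 (MYB, CEBPB, CEBPD and RUNX1), none was lower, and SPI1, CEBPA, CEBPE and GFI1 did not pass the test. The rises were small, from 7.62% for RUNX1 to 26.2% for CEBPD. The comparison as a whole called many genes, as 22.7% of all 17395 tested genes were higher, 24.4% were lower and 47.1% passed the test in either direction. Counted in either direction, 4 of 8 members is close to the share of the whole table. When the study's fold change threshold, an absolute log2 value over 1, was added, 0 of the 8 members and 4.28% of all tested genes remained. Without that threshold, and at an unadjusted p under 0.05, the same 4 members were called, and limma on the recovered reads, a test chosen after seeing the data, called 4 higher and 0 lower. The median log2FC of the 8 members was 0.09, against 0.01 over all tested genes, and their median absolute log2FC was 0.09, against 0.28 over all tested genes and 0.22 over the 7000 genes with a mean over 1000. The members were deeply covered, as 7 of the 8 had a mean over 1000, where 32.9% of genes were higher and 37.9% lower, and their SEs lay between 0.04 and 0.11 on the log2 scale. Over all tested genes in bins of the mean, the median log2FC was 0.21 in the bin of the most abundant genes, which holds CEBPA, 0.07 in the next, which holds MYB and GFI1, and 0.03 in the one below, which holds RUNX1.

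**Figure D1:**
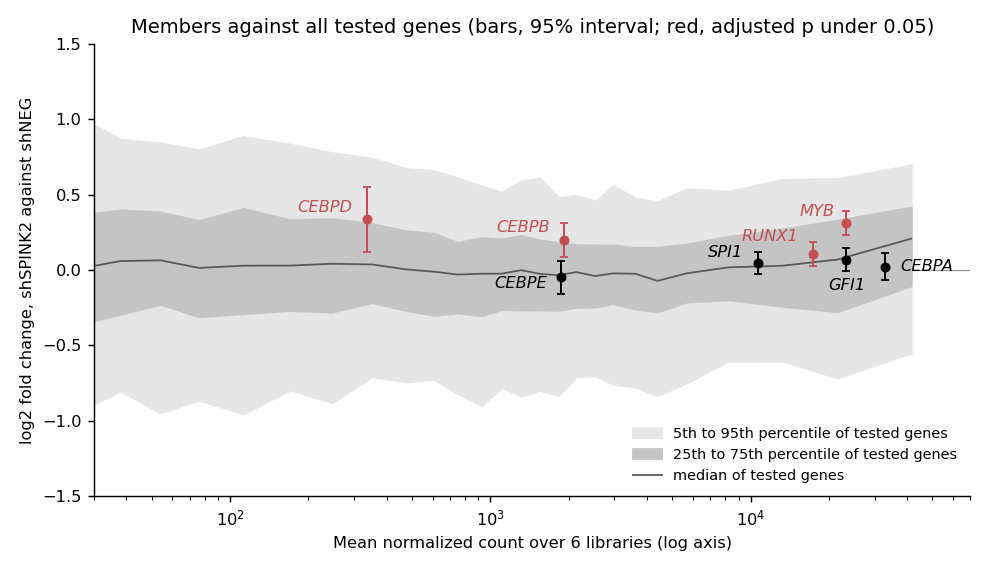
Log2FC of shSPINK2 against shNEG (y axis) and mean normalized count on a log axis (x axis), with 95% intervals of the 8 tested members and grey bands for the percentiles of all 17395 tested genes in bins of the mean. MYB, at 0.31, stood farthest above 0 among the members with a mean over 1000, and SPI1, GFI1, CEBPA and CEBPE had intervals that include 0.

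The separation of the recovered libraries gave the same 4 genes. The reads were recovered from the deposited values that the calls rest on, so this is not separate support for the calls. In MYB, CEBPB, CEBPD and RUNX1 every shSPINK2 library lay above every shNEG library, which held for 29.2% of the 17283 recovered genes, and 30.2% of genes were separated in the opposite direction, among them no member. An exact permutation test of 3 libraries against 3, two-sided, cannot give a p below 0.1, and gave that value for these 4 genes. The coefficient of variation ran from 1.21% to 5.76% over the members in shNEG and from 1.13% to 10.5% in shSPINK2, and was the larger of both in shSPINK2 for 7 of the 8. The wider spread was not particular to the members. Over all recovered genes, pairs of libraries differed by 4.59 to 6.28 times the counting error within shSPINK2 and 1.78 to 2.42 within shNEG. Library b of shSPINK2 was the highest of its group for RUNX1 and MYB and the lowest for SPI1, CEBPA, CEBPB, CEBPD and CEBPE.

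**Figure D2:**
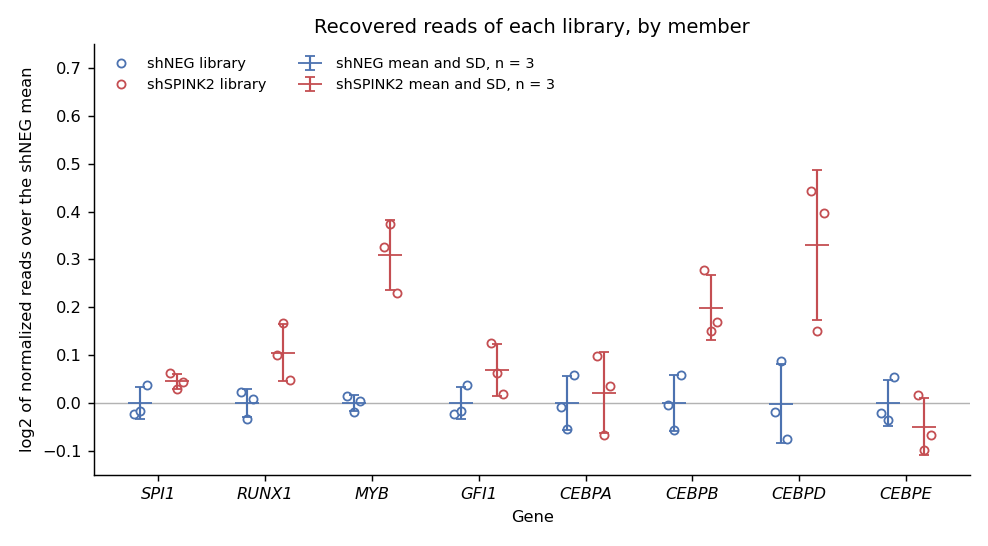
Normalized reads of each recovered library divided by the shNEG mean of the gene, on a log2 scale (y axis), for the 8 detected members (x axis), with 3 libraries per group as open points and the mean and SD as bars. The groups do not overlap for RUNX1, MYB, CEBPB and CEBPD, and overlap for SPI1, GFI1, CEBPA and CEBPE.

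Both factors of progenitors were higher, and MYB had the smallest p-value of the members. MYB (ENSG00000118513.18, chromosome 6 from 135181308 to 135219173), a factor that keeps immature cells cycling and is switched down as they mature, had 21037, 20545 and 20889 normalized reads in shNEG and 26106, 26978 and 24420 in shSPINK2. All shSPINK2 libraries stood above all shNEG libraries, and the lowest of them was library c. Its log2FC was 0.31 (SE 0.04, DESeq2 adjusted p = 6.85e-13), that is 24.1% higher with a 95% interval from 17.2% to 31.3%. The log2 ratio of the group means stayed between 0.28 and 0.35 when each library was left out in turn. Of all tested genes, 45.5% had a larger absolute fold change. MYB-AS1, an antisense transcript that overlaps 103 exonic bases of MYB, had a mean of 14.9 against 23329 for MYB and a log2FC of 0.71 (SE 0.50, DESeq2 adjusted p = 0.258). Whether the counting used strand is not given in the sources used here, so reads in such overlaps cannot be assigned to one of both genes. Besides MYB and CEBPB, this applies to CEBPA and KLF4. An antisense transcript overlapped 659 of the 2601 exonic bases of CEBPA and another overlapped 482, both with a mean of 0. For KLF4 the overlap was 357 of 3662 exonic bases, with a transcript for which no value is given.

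RUNX1 (ENSG00000159216.18, chromosome 21 from 34787801 to 36004667), which binds DNA together with CBFB and is needed for definitive haematopoiesis, had 16943, 16298 and 16781 normalized reads in shNEG and 17882, 18716 and 17234 in shSPINK2. The groups did not overlap, but library c of shSPINK2 lay close to library a of shNEG. The log2FC was 0.11 (SE 0.04, DESeq2 adjusted p = 0.0212), an increase of 7.62% with a 95% interval from 1.84% to 13.7%. This was the weakest of the 4 calls. With limma on the recovered reads the adjusted p was 0.0282, and it was 0.0627 without library a of shNEG, 0.151 without b, 0.0647 without c and 0.0996 without library b of shSPINK2. Leaving out library a or c of shSPINK2 gave limma adjusted p-values of 0.0383 and 0.00324.

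The factors that set the myeloid fate did not pass the test. SPI1 (ENSG00000066336.11, chromosome 11 from 47354860 to 47378547), the ETS factor PU.1 that directs both monocytic and granulocytic differentiation, had 10345, 10389 and 10784 normalized reads in shNEG and 10967, 10723 and 10827 in shSPINK2. Library b of shSPINK2 lay below library c of shNEG, so the groups overlapped. The log2FC was 0.04 (SE 0.04, DESeq2 adjusted p = 0.349), and its 95% interval reached from a decrease of 1.95% to an increase of 8.55%. CEBPA (ENSG00000245848.2, chromosome 19 from 33299934 to 33302534), the C/EBP factor required for the granulocyte and macrophage progenitor, was the most abundant member, with 32421, 31401 and 33950 normalized reads in shNEG and 34899, 31093 and 33382 in shSPINK2. Its lowest and its highest library were both in shSPINK2. The log2FC was 0.02 (SE 0.05, DESeq2 adjusted p = 0.728), with a 95% interval from -4.57% to 8.25%, and its direction turned without library b of shNEG or without library a of shSPINK2, where the log2 ratios of the means were -0.0026 and -0.02.

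The 2 factors of granulocytic maturation did not pass the test either. GFI1 (ENSG00000162676.11, chromosome 1 from 92473043 to 92486925), a zinc finger repressor that favours granulocytes over monocytes, had 22452, 22543 and 23397 normalized reads in shNEG and 24863, 23823 and 23090 in shSPINK2. Library c of shSPINK2 fell below library c of shNEG. The log2FC was 0.07 (SE 0.04, DESeq2 adjusted p = 0.141), with a 95% interval from -0.530% to 10.7%. Leaving out library c of shSPINK2 brought GFI1 past the threshold in limma, with a log2FC of 0.09 and an adjusted p of 0.0309. CEBPE (ENSG00000092067.5, chromosome 14 from 23117036 to 23120256), which drives the genes of secondary granules late in neutrophil maturation, was the only tested member with a negative value. It had 1880, 1862 and 1981 normalized reads in shNEG and 1930, 1782 and 1821 in shSPINK2, with library a of shSPINK2 above libraries a and b of shNEG. The log2FC of -0.05 (SE 0.06, DESeq2 adjusted p = 0.516) had a 95% interval from -10.4% to 4.30%.

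The C/EBP factors linked to inflammatory and monocytic expression were higher. CEBPB (ENSG00000172216.5, chromosome 20 from 50190830 to 50192668), which takes over from CEBPA in emergency granulopoiesis and in macrophages, had 1790, 1725 and 1870 normalized reads in shNEG and 2175, 1992 and 2019 in shSPINK2. The lowest shSPINK2 library, b, exceeded the highest shNEG library, c. The log2FC was 0.20 (SE 0.06, DESeq2 adjusted p = 0.00139), an increase of 14.9% with a 95% interval from 6.28% to 24.1%. CEBPB-AS1, antisense to CEBPB over 231 of its 1839 exonic bases, had a mean of 42.1 and was also higher, by 0.80 on the log2 scale (SE 0.28, DESeq2 adjusted p = 0.011). CEBPD (ENSG00000221869.4, chromosome 8 from 47736913 to 47738164), an early response gene of cytokine signalling, was the least abundant detected member, with 293, 316 and 282 normalized reads in shNEG and 404, 330 and 391 in shSPINK2. Library b of shSPINK2 lay just above library b of shNEG, and the other two were well above. Its log2FC was 0.34 (SE 0.11, DESeq2 adjusted p = 0.00649), the largest of the members and the least precise, with a 95% interval from 8.52% to 46.7%. Both calls were kept in limma without each library in turn, with adjusted p-values of at most 0.0142 for CEBPB and 0.0146 for CEBPD.

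KLF4 (ENSG00000136826.14, chromosome 9 from 107484852 to 107490482), a zinc finger factor that promotes monocyte differentiation, was listed at a mean of 0, hence with 0 reads in each of the 6 libraries and no test. A count of 0 allows up to 3 reads in a library, which is 0.0206 to 0.0216 reads per kilobase of exon per 1000000 reads, an upper limit that covers counting error only. KLF4 could therefore not be detected at this depth in either group.

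To compare the members with one another, normalized reads were divided by the length of the merged exons of the gene and scaled to 1000000 of the 38425214 reads that the deposited means sum to. On this scale, the levels in shNEG ran in the order CEBPA (326 ± 12.8, SD, n = 3), SPI1 (134 ± 3.09), GFI1 (105 ± 2.40), MYB (98.6 ± 1.19), CEBPE (28.1 ± 0.95), RUNX1 (27.9 ± 0.562), CEBPB (25.4 ± 1.03) and CEBPD (6.18 ± 0.356). CEBPE and RUNX1 overlapped between libraries and the other neighbours did not. In shSPINK2 the levels were 331 ± 19.2 for CEBPA, 138 ± 1.56 for SPI1, 122 ± 6.16 for MYB, 110 ± 4.11 for GFI1, 29.99 ± 1.24 for RUNX1, 29.2 ± 1.39 for CEBPB, 27.2 ± 1.13 for CEBPE and 7.79 ± 0.822 for CEBPD. RUNX1 and CEBPB overlapped there, as did CEBPB and CEBPE, while MYB stood above GFI1 in place of below it. By mean normalized count, which is not divided by length, only 0.650% of all tested genes stood above CEBPA. By the same count, GFI1, MYB, RUNX1 and SPI1 each had 3.47% of tested genes or fewer above them. The order of the levels per length depends on the length used, most for RUNX1. Its merged exons span 15574 bases and its canonical transcript has 5971. With canonical transcripts RUNX1 reached 72.7 in shNEG, above CEBPE at 41.7, and MYB at 147 exceeded GFI1 at 130. With coding lengths RUNX1 reached 301 in shNEG, above MYB at 237, and GFI1 at 469 stood above SPI1 at 338. GFI1 then also exceeded MYB in shSPINK2, at 492 against 294.5, so the place of MYB above GFI1 there does not hold on this scale.

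**Figure D3:**
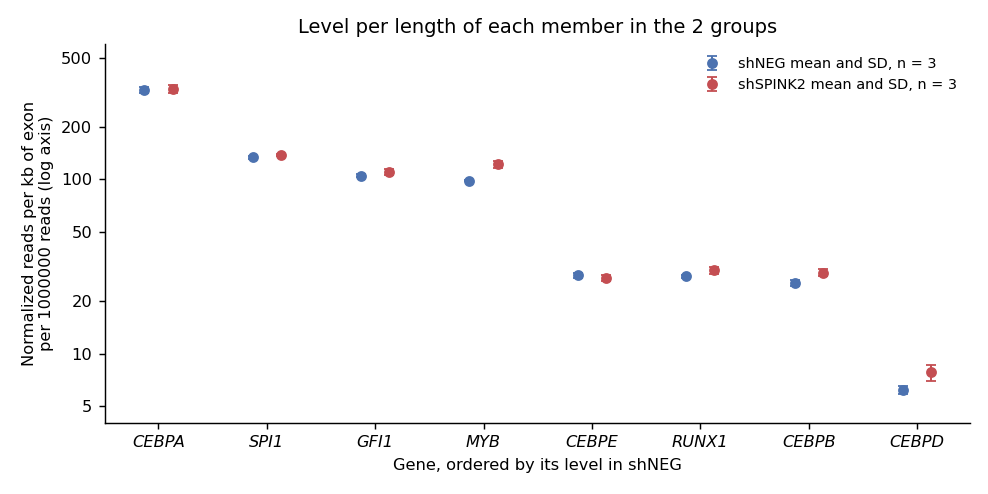
Normalized reads per kilobase of merged exons per 1000000 reads, on a log axis (y axis), of each detected member (x axis, ordered by shNEG), as mean and SD of the 3 libraries of each group. CEBPA is the highest at 326 in shNEG and 331 in shSPINK2, and CEBPD the lowest at 6.18 and 7.79.

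Ratios of reads within a library do not depend on the size factors or, between groups, on the length. The ratio of MYB to GFI1 reads was 0.937, 0.911 and 0.893 in shNEG and 1.05, 1.13 and 1.06 in shSPINK2, so GFI1 had more reads in each shNEG library and MYB in each shSPINK2 library. The ratio of CEBPB to CEBPE was the tightest, with 0.952, 0.926 and 0.944 in shNEG and 1.13, 1.12 and 1.11 in shSPINK2. The ratio of CEBPA to SPI1 was 3.13, 3.02 and 3.15 in shNEG and 3.18, 2.90 and 3.08 in shSPINK2, and here the groups overlapped. These 3 pairs were chosen after their values were seen and received no test. Over the 4 C/EBP members, which leaves out CEBPG, CEBPA made up 84.5% ± 0.178 (SD, n = 3) of the summed level per length in shNEG and 83.8% ± 0.241 in shSPINK2, CEBPB 6.58% ± 0.0285 and 7.38% ± 0.191, CEBPE 7.30% ± 0.0704 and 6.88% ± 0.158, and CEBPD 1.60% ± 0.150 and 1.97% ± 0.110. Each of these shares differed between the groups by less than 1 percentage point, although for none of them did the libraries of the groups overlap. The shares are parts of a whole, so a rise in some lowers the others. By their own normalized reads, CEBPA and CEBPE overlapped between the groups. The shares use merged exons, which for CEBPE span 1764 bases against 1191 in the canonical transcript.

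The gene lists around the members were also chosen with earlier results of these data known. Their counts stand beside 22.7% higher and 24.4% lower over all tested genes. Many genes of these lists had a mean over 1000, where 32.9% of tested genes were higher and 37.9% lower. Of the paralogs of the members, more were lower than higher. Of 20 genes of the same families, 15 were tested, of which 0 were higher, 9 lower and 6 did not pass the test, with a median log2FC of -0.28 against 0.01 over all tested genes. MYBL2, the MYB relative that is expressed in dividing cells and acts in the cell cycle, fell the most of the tested paralogs. It had 7027 mean normalized reads and a log2FC of -1.70 (SE 0.05, DESeq2 adjusted p = 1.72e-249). MYBL2 was thus lower while MYB was higher. KLF16 had the next largest absolute Wald statistic, though not the next largest fall, with a log2FC of -0.59 (SE 0.06, DESeq2 adjusted p = 2.77e-22). MYBL1, named after its value was seen, was the only other tested paralog past an absolute value of 1, at -1.30 (SE 0.17). CEBPG and RUNX3, which are also named after their values were seen, were lower by -0.36 and -0.31, and RUNX2 was at 0.07 (SE 0.07, DESeq2 adjusted p = 0.465).

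Transcripts of partners, cofactors and regulators of the members were more often lower than higher. Of 12 such genes tested, 1 was higher, 8 were lower and 3 did not pass the test, with a median log2FC of -0.26 (all tested genes, 0.01). The list mixes cofactors with regulators, so the lower genes are not all proteins through which the members act. TRIB1, TRIB2 and ID1, regulators named after their values were seen, were among the lower, at -0.27, -0.30 and -0.49. A further partner of the list, COP1, was not matched by its symbol. HDAC2, a histone deacetylase, fell by 0.31 on the log2 scale (SE 0.05, DESeq2 adjusted p = 3.49e-09), and KDM1A, the histone demethylase LSD1 that GFI1 recruits to repress its targets, fell by 0.26 (SE 0.04, DESeq2 adjusted p = 2.25e-08). CBFB, the partner of RUNX1 and named after its value was seen, was lower by 0.27 on the log2 scale (SE 0.05) while RUNX1 was higher by 0.11. DDIT3 (CHOP), a stress-induced C/EBP protein that dimerises with other C/EBP factors and restrains their binding, was higher by 0.44 (SE 0.12, DESeq2 adjusted p = 0.00118). Other transcription factors of myeloid cells split in direction, with 4 higher, 3 lower and 5 that did not pass the test among 12 tested, and a median of -0.01. Those with the largest statistics were ZEB2 (0.49) and FLI1 (0.34) among the higher, and VDR, the vitamin D receptor, (-0.75) and its partner RXRA (-0.19) among the lower.

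**Figure D4:**
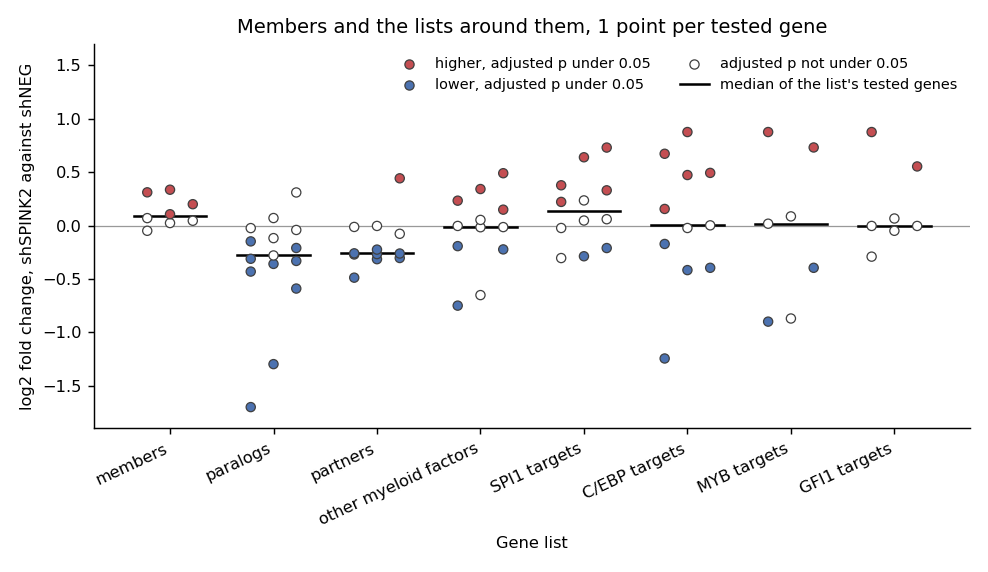
Log2FC of shSPINK2 against shNEG (y axis) for each tested gene of the members and of 7 lists around them (x axis), with the calls at an adjusted p under 0.05 in colour and the median of each list as a line. Paralogs and partners have medians of -0.28 and -0.26, and the lists of targets have medians from -0.0036 to 0.14.

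Target genes of the members did not move as blocks. For comparison with the counts of these lists, 22.7% of all tested genes were higher and 24.4% lower, with a median log2FC of 0.01. Of 12 SPI1 targets, all tested, 5 were higher, 2 lower and 5 did not pass the test (median log2FC 0.14). NCF4 and CYBB, subunits of the phagocyte oxidase, were lower, at -0.29 (SE 0.05) and -0.21 (SE 0.04). FCGR1A, the gene of CD64, was higher by 0.64 (SE 0.07), although near-identical gene copies may share its reads. Of 13 C/EBP targets, 11 were tested, with 5 higher, 4 lower and 2 that did not pass the test (median 0.0019). S100A8, a calcium-binding protein of neutrophils and monocytes, was higher by 0.67 (SE 0.06, DESeq2 adjusted p = 7.08e-33) and LYZ, lysozyme, by 0.49 (SE 0.04). MPO, the peroxidase of primary granules, and IL6R were lower, at -0.40 (SE 0.06) and -0.17 (SE 0.04).

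Of 9 MYB targets 7 were tested, with 2 higher, 2 lower and 3 that did not pass the test (median 0.02). PRTN3 and ELANE, serine proteases of the primary granules, were higher by 0.73 (SE 0.04, DESeq2 adjusted p = 1.38e-71) and 0.88 (SE 0.08, DESeq2 adjusted p = 2.18e-26), while ETS1 was lower at -0.90 (SE 0.04, DESeq2 adjusted p = 4.56e-89) and MPO was lower as above. Genes of the same granule thus moved in opposite directions. Of 8 genes that GFI1 represses 7 were tested, with 2 higher, 0 lower and 5 that did not pass the test (median -0.0036). HOXA9 was higher by 0.55 (SE 0.04, DESeq2 adjusted p = 8.75e-42), and ELANE is the other one. The lists share genes, as ELANE is in the C/EBP, MYB and GFI1 lists and MPO in the C/EBP and MYB lists, and a gene listed as a target need not be controlled by that factor in these cells.

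The identity of the cells was examined through marker genes. Of 7 markers of myeloid blasts, ANPEP (CD13), CD33 and PTPRC were higher in shSPINK2, at 0.82, 0.36 and 0.33 on the log2 scale, MPO was lower, and CD34 and CD38 did not pass the test, with CD34 at a mean of 19.6 normalized reads and KIT at 0.666. The summed normalized reads of the 6 tested myeloid markers were 24541 to 25423 in shNEG and 31398 to 33417 in shSPINK2. Markers of T cells reached a mean of at most 7.65 and the haemoglobin genes HBB and HBA1, the platelet genes PF4 and GP9, and EPCAM, KRT19 and COL1A2 were at 0. Of the B cell markers, PAX5, CD22 and MS4A1 had means of 0.333 or less, while CD79A had a mean of 183 and was higher by 0.59, and the summed reads of the 2 tested ones were 174 to 183 in shNEG and 223 to 281 in shSPINK2. Of the markers of erythroid cells and megakaryocytes none passed the test, and of those of stromal and epithelial cells COL1A1, with a mean of 149, was lower at -0.61 while VIM, also expressed in leukaemic cells, was at 0.04. In bulk RNA, fewer cells of one type and less of a message in each cell cannot be told apart, and the part of a change in cell composition in the values of the members was not tested.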

How the data were processed

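Poly(A) libraries of FUJIOKA cells were sequenced as paired reads of 150 bases. Reads were checked with FastQC, aligned to GRCh38 with STAR (2.7.11 per the labels), counted per gene with featureCounts and compared with DESeq2 (1.40.0) by the authors. The annotation release and the strandedness of counting are not given in the sources used here.

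The authors' deposited table holds, per gene, a signal (the mean over 6 libraries of counts divided by size factors), the log2 fold change between the groups (shSPINK2 over shNEG), and as scores its standard error and the Wald statistic. Each p-value and the Benjamini-Hochberg adjusted p-value are also as deposited. Such columns are the authors' comparison and were used because the table lists no other values. No column held values of an unassigned sample.

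Reads per library were recovered as the whole numbers whose weighted sum is the deposited mean and whose refitted fold change matches the deposited one within 5e-13. Each weight comes from the 546 to 662 genes with 1 read in 1 library. Of 17395 genes with an adjusted p-value, those with a mean up to 35000 were searched, and 17283 had exactly 1 solution. With the fold change moved by 0.003 on the log2 scale, 0 of 500 genes and 0 of the 9 genes reported in full (8 members and SPINK2) had a solution. On simulated data 162 of 162 genes were recovered. The depth behind a value is the reads printed, without molecular identifiers, so intervals cover less than the full error.

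Calls are adjusted p-values under 0.05 over all tested genes, and 95% intervals use the normal limits of the standard error. Positions, lengths and 3′ UTRs come from GENCODE release 44, matched by gene ID. Alternatives were other thresholds, adjustments and gene sets, centred fold changes, leaving out libraries and other lengths. A further one, chosen after seeing the data, was limma 3.58.1 (R 4.3.3) on the recovered reads. It used the size factors derived from the deposited means. Members and gene lists were chosen with earlier results of these data known. Named are SPINK2, all members and, per list, the 2 called genes with the largest Wald statistic in each direction, with exceptions stated. One gene that this rule names is not reported here. Python 3.11.15, numpy 2.4.6, pandas 2.3.3 and scipy 1.17.1 were used.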

Additional observations from a re-analysis of the deposited data

How the results depend on the processing

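With an absolute log2 fold change over 1, 0 members were higher, as with one over 1.5-fold (0), and the Holm adjustment left 1, MYB. Over all genes these settings gave 272, 996 and 2031 higher and 472, 1308 and 2421 lower genes. An adjusted p under 0.01, adjustment over every gene with a p-value, protein-coding genes alone, a mean of at least 50, centring on the median and limma on the recovered reads changed the count of members called by less than 1.5 times, and the number of members lower was 0 under each of them. Leaving out 1 library at a time, limma called 3 to 5 members higher and 0 lower, and 4080 to 4529 higher and 4404 to 4720 lower genes overall. The calls lost were those of RUNX1, and the one gained was GFI1, as given with these genes. Levels per length moved with the length used by more than their SD for all 8 members under at least 1 of the other lengths. No paired analysis was possible because the recovered libraries carry no replicate number. The number of 3 libraries per group and the low reads of CEBPD limit the precision, and which shRNA each shSPINK2 library carries was not known.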
